A study of Mus musculus with 4 samples.

Results

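Titin, the M-band proteins Myom1 and Myom2, the myosin-binding proteins Mybpc2, Mybpc3, Mybph and Mybphl, and the titin-associated ubiquitin ligases Trim63 and Trim54 were described across 4 arrays of mouse left ventricle. The members were all probes paired with these 9 symbols in the annotation of the array platform. This gave 10 probes of 8 symbols, out of 23473 probes in all: 3 for Ttn and 1 for each of the others but Mybphl, which was paired with none here and has no values. All 10 probes had a value on every array.

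The 4 groups, with 1 array each, were wild type (WT) after sham operation or after TAC, and STIM1KO after either operation. All were male C57BL/6 mice. TAC is a surgical narrowing of the aortic arch that loads the left ventricle with pressure. It was done at 10 weeks of age over a wire of 0.3 mm, sham mice had the operation without the band, and hearts were taken 4 weeks later, at 14 weeks. The genotype is labelled STIM1 KO, a deficiency of the calcium sensor of the endoplasmic reticulum; the sources used here do not give which cells lost the gene. The average heart weight to body weight values, printed without a unit, were 4.1 in WT sham and 6.7 in WT TAC, against 4.5 in STIM1KO sham and 4.9 in STIM1KO TAC. Nothing in the labels says whether an array held RNA of 1 mouse or of a pool. With 1 array a group there is no spread between animals, no test and no p-value, and each difference below is between arrays.

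The M-band is the structure in the middle of the sarcomere that ties neighbouring myosin filaments to each other. Myomesin, encoded by Myom1, is its main cross-linker, and M-protein, encoded by Myom2, is a related cross-linker of fast and adult striated muscle. Titin, encoded by Ttn, runs from the Z-disc to the M-band, acts as a spring and a ruler of the sarcomere, and is made in several isoforms by alternative splicing. Myosin-binding proteins sit on the thick filament. Mybpc3 encodes the cardiac form, which sets how readily myosin heads reach actin, Mybpc2 the fast skeletal form, and Mybph a shorter relative. Trim63 (MuRF1) and Trim54 (MuRF3) encode ubiquitin ligases of muscle, of which MuRF1 binds titin near the M-band.

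Promoter sequence was at hand for 8 of the 9 genes, Mybphl included and Myom2 not, from RefSeq on mouse build GRCm38.p6. The stretches of Ttn, Mybpc3, Myom1 and Trim54 are shown as examples of the motifs of muscle promoters that were searched. Each runs from 200 to 51 bases before the start of transcription, 5′ to 3′ on the strand of the gene, and capitals mark the matches found in it. Ttn lies at chr2:76982598-76982747 on the minus strand, Mybpc3 at chr2:91117944-91118093, Myom1 at chr17:71019357-71019506 and Trim54 at chr5:31116412-31116561, the last 3 on the plus strand.
Ttn: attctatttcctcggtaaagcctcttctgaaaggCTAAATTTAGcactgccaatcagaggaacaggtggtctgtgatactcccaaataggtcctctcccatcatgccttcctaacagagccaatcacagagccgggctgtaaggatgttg
Mybpc3: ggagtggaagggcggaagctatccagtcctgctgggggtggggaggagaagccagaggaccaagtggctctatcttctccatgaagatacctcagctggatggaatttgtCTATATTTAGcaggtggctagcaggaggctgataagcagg
Myom1: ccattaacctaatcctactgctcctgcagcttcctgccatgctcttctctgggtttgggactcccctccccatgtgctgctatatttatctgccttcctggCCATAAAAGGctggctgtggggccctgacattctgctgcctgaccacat
Trim54: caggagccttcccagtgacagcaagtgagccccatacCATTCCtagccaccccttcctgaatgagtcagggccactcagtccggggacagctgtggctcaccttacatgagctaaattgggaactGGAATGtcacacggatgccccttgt
The capitals in Ttn and Mybpc3 are matches to the MEF2 consensus, the site of the MEF2 factors of muscle. That consensus was held by these 2 of the 8 member promoters and by 2.29% of all 32851 promoters over the 200 bases before the start. In Myom1 they mark a CArG box, the site of serum response factor, held by 1 of 8 members and 1.18% of all. In Trim54 they mark 2 copies of the MCAT motif (CATTCC), on opposite strands, which 4 of 8 members and 10.1% of all held. The TATA motif (TATAAA) was held by 2 of 8, Mybph and Trim63, and by 9.96% of all. Motifs were searched on both strands, and in the member promoters no match overlapped another. A match is a run of letters and not a measured site.

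Between 21115 and 21782 probes had a value on an array. Values were quantile-normalized between arrays, so an intensity below is in the arbitrary units of the deposited table, in which the median probe of each array was near 20. Of 19607 probes with a value on all 4 arrays, 9804 were at least as bright on average as the median probe, which lay at 4.64 on the log2 scale, or an intensity of 24.9; this is called the filter level. Across these probes the STIM1KO TAC array correlated at 0.966 to 0.976 with the others, which correlated with each other at 0.988 to 0.99. Stim1 was at 41.4 in WT sham and 34.3 in WT TAC, against 19.8 in STIM1KO sham and 14.3 in STIM1KO TAC, so both STIM1KO arrays were lower. The left ventricular label was checked against 10 cardiomyocyte markers, of which 9 were measured on all arrays; Myl2, the ventricular myosin light chain, was at 54560 to 58360.

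Of the 10 member probes, 8 were at or above the filter level, and the Trim63 probe and the dimmest Ttn probe were below it. In the response of WT to TAC none of the 8 was 2-fold higher or 2-fold lower, against 0.245% and 0.163% of all probes above the filter level. In the response of STIM1KO none was either, against 1.69% and 0.418%. Between the sham arrays none was either, against 0.112% higher and 0.5% lower in STIM1KO. Between the TAC arrays 1 probe, of Ttn, was 2-fold higher in STIM1KO and 1, of Myom2, 2-fold lower, against 0.938% and 0.949% of all. The difference of responses is the response of STIM1KO minus that of WT. There 0 were 2-fold above and 2, of Myom2 and Mybpc2, were 2-fold below, against 1.85% and 0.643%.

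The split of all probes at 2-fold depended on the scaling. With each array centred on its median, 104 were higher and 84 lower in the response of STIM1KO, in place of 166 and 41. Between the TAC arrays the split was 68 and 141 in place of 92 and 93. For the difference of responses it was 113 and 128 in place of 181 and 63.

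**Figure D1:**
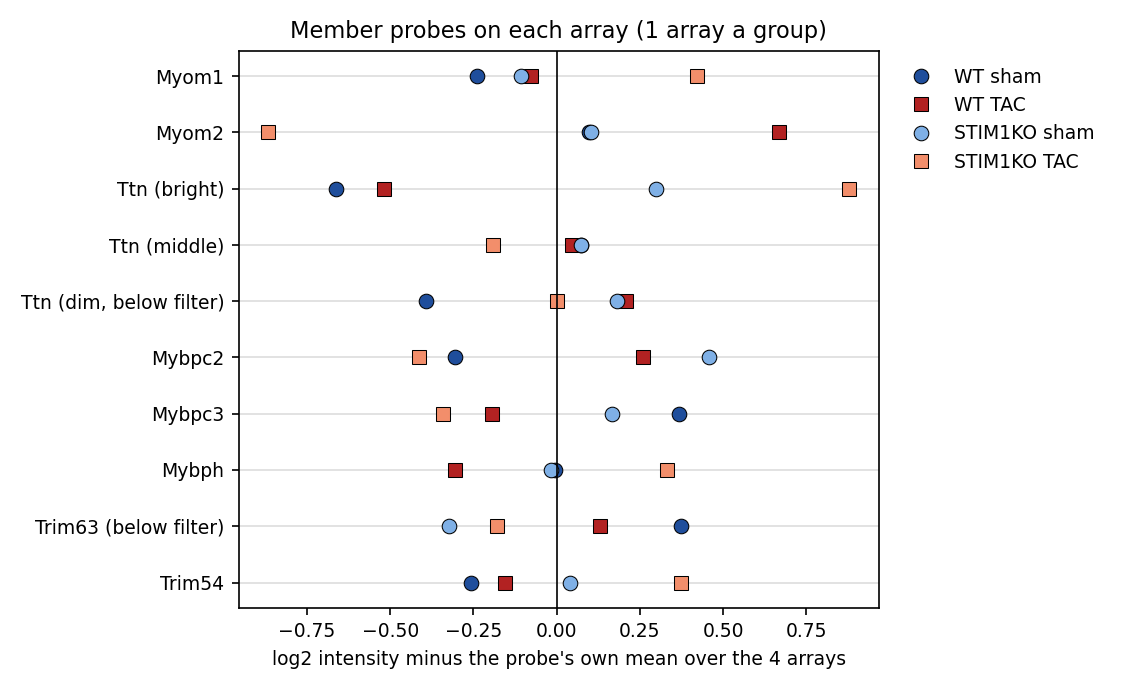
Log2 intensity of each of the 10 member probes on the 4 arrays (1 array a group), as the distance from the probe's own mean. Circles are sham and squares TAC arrays, dark symbols WT and light symbols STIM1KO. Myom2 spans 1.54 from STIM1KO TAC to WT TAC, and the bright Ttn probe spans 1.54 from WT sham to STIM1KO TAC, with its arrays in another order.

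The 2 M-band cross-linkers stood apart from each other on the STIM1KO TAC array. Myom2 had an intensity of 1032 in WT sham and 1535 in WT TAC, against 1036 in STIM1KO sham and 529 in STIM1KO TAC. Both sham arrays were alike, WT TAC was the highest of the 4 and STIM1KO TAC the lowest. The log2 difference of Myom2 was 0.57 in the response of WT (1.49-fold) and -0.97 in that of STIM1KO (1.96-fold lower), and -1.54 between the TAC arrays (2.9-fold lower in STIM1KO). Without the STIM1KO TAC array, what remains is the 0.57 in WT and 0.006 between the sham arrays, a value with no settled sign, since other scalings gave -0.006 to 0.059. Each difference was set beside the 500 probes nearest in level, as a description of how widely probes of that brightness differed. Of these, 12 differed by as much in the response of WT, 7 in that of STIM1KO and 0 between the TAC arrays. The difference of responses for Myom2 was -1.54, which 1 of 500 reached. In the response of STIM1KO it was at or past 2-fold with the values as deposited (-1.01), with median centring (-1.11) and with quantile normalization over the shared probes (-1.02).

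Myom1 had an intensity of 1888 in WT sham and 2114 in WT TAC, against 2068 in STIM1KO sham and 2986 in STIM1KO TAC. All but the last lay close together, and STIM1KO TAC was the highest. Its log2 difference was 0.16 in the response of WT, 0.53 in that of STIM1KO and 0.50 between the TAC arrays, and 103 of the 500 probes nearest in level differed by as much in the last of these. A difference taken between Myom1 and Myom2 within an array does not depend on a constant scaling of the arrays. Between the TAC arrays Myom1 differed from Myom2 by 2.04 on the log2 scale (4.1-fold), or 2.04 with the values as deposited. In the response of STIM1KO it was 1.50, and in that of WT -0.41.

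The 3 Ttn probes gave different results. The brightest probe, M200014444, had an intensity of 1262 in WT sham and 1393 in WT TAC, against 2460 in STIM1KO sham and 3677 in STIM1KO TAC. Both STIM1KO arrays were above both WT arrays on this probe. The log2 difference was 0.96 between the sham arrays (1.95-fold higher in STIM1KO) and 1.40 between the TAC arrays (2.64-fold), and 3 and 2 of the 500 probes nearest in level differed by as much. The first of these values does not involve the STIM1KO TAC array, and it was at 1.04 with median centring. The response to TAC on this probe was 0.14 in WT and 0.58 in STIM1KO.

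The middle probe, M300013771, had an intensity of 76.7 in WT sham and 75.3 in WT TAC, against 76.6 in STIM1KO sham and 63.8 in STIM1KO TAC. All but the last were nearly equal, and STIM1KO TAC was the lowest. It differed by -0.24 between the TAC arrays, a size that 273 of 500 probes of like level reached, and by -0.002 between the sham arrays, where the sign turned with the scaling. The dimmest probe, M400003877, was at 3.25 in WT sham and 4.93 in WT TAC, against 4.84 in STIM1KO sham and 4.27 in STIM1KO TAC. All 4 values lay under the first quartile of their array, 5.48 to 5.49, so this probe carries little information. Its differences were 0.60 in the response of WT and -0.21 between the TAC arrays, and an offset before log2 brought them to 0.25 and -0.09.

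The gap between Ttn probes was set against other genes. That these probes disagree was known when the members were chosen, so their place among the genes is a description only. There were 54 genes with at least 2 probes above the filter level, Ttn among them with its bright and middle probe. Between the TAC arrays the log2 differences of the Ttn probes lay 1.64 apart, the widest of the 54 genes, for which the median was 0.35 and the 95th percentile 0.95. Between the sham arrays they lay 0.96 apart, and 1 gene, Rps6ka1, was wider at 1.02. In the response of WT they lay 0.17 apart, and 34 genes were wider. The sources used here do not give which part of the transcript each probe matches, and whether titin isoforms account for the gap was not tested.

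**Figure D2:**
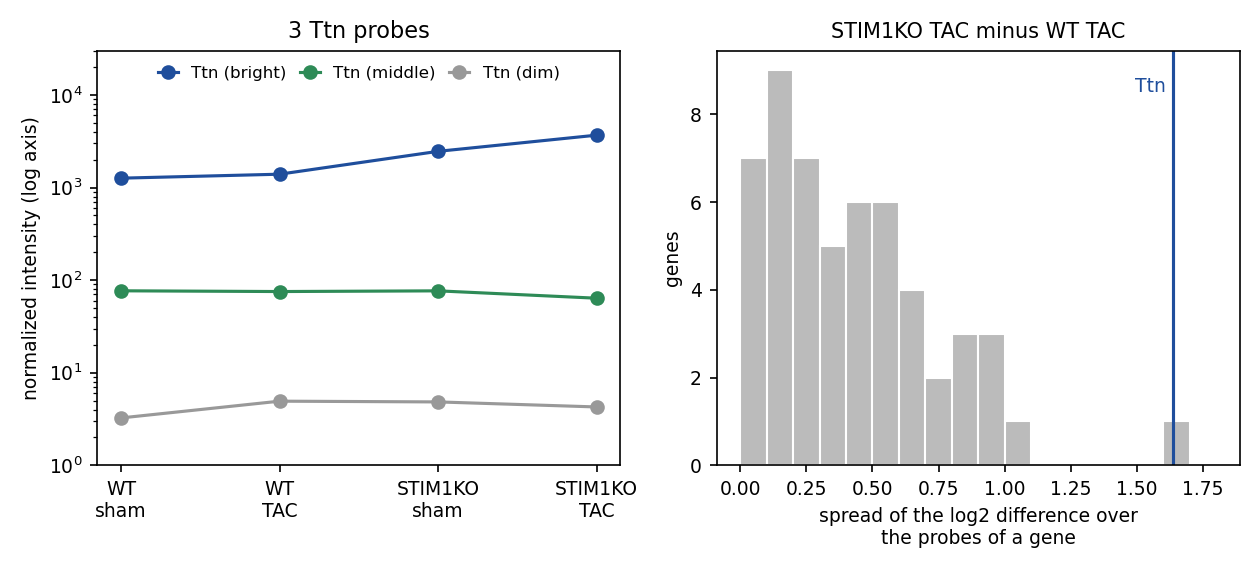
Left, normalized intensity (log axis) of the 3 Ttn probes on the 4 arrays, with lines joining the values of 1 probe. Right, for 54 genes with 2 or more probes above the filter level, the spread of the log2 difference between STIM1KO TAC and WT TAC over the probes of a gene. The bright probe goes from 1262 to 3677 while the middle probe stays between 63.8 and 76.7, and the Ttn spread of 1.64 is the last bar.

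Among the myosin-binding proteins, Mybpc3 was lower on both TAC arrays. Its intensity was 6193 in WT sham and 4191 in WT TAC, and 5385 in STIM1KO sham and 3788 in STIM1KO TAC. Its log2 difference was -0.56 in the response of WT (1.48-fold lower) and -0.51 in that of STIM1KO (1.42-fold lower), which 17 and 79 of the 500 probes nearest in level reached. These responses share no array. The difference of responses was 0.06, with a sign that turned with the scaling (-0.19 with median centring), and the genotype differences were -0.20 between the sham and -0.15 between the TAC arrays.

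Mybpc2, the fast skeletal form, had an intensity of 73.4 in WT sham and 109 in WT TAC, against 125 in STIM1KO sham and 68.1 in STIM1KO TAC. WT TAC and STIM1KO sham were high and the other two arrays low, so TAC went with a higher value in WT and a lower value in STIM1KO. The log2 difference was 0.57 in the response of WT and -0.87 in that of STIM1KO, or -1.01 with median centring, and the difference of responses was -1.44, reached by 2 of 500 probes of like level. Between the sham arrays Mybpc2 was 0.76 higher in STIM1KO (1.7-fold), which 5 of 500 reached, and between the TAC arrays it was at -0.67. Without the STIM1KO TAC array, the 0.57 and the 0.76 remain, which both rest on the WT sham array.

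Mybph was at 36.9 in WT sham and 30.0 in WT TAC, against 36.6 in STIM1KO sham and 46.6 in STIM1KO TAC. Both sham arrays were alike, and the TAC arrays lay on either side of them. The log2 difference was -0.30 in the response of WT, 0.35 in that of STIM1KO and 0.64 between the TAC arrays, and 83 of the 500 probes nearest in level reached the last of these.

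Of the titin-associated ligases, Trim54 was above the filter level and higher on the STIM1KO arrays. It was at 515 in WT sham and 553 in WT TAC, against 633 in STIM1KO sham and 797 in STIM1KO TAC. Its log2 difference was 0.30 between the sham arrays and 0.53 between the TAC arrays (1.44-fold), where 70 of 500 probes of like level differed by as much. Trim63 was below the filter level, at 29.3 in WT sham and 24.7 in WT TAC, against 18.1 in STIM1KO sham and 20 in STIM1KO TAC. Here the STIM1KO arrays were the lower ones, by -0.70 between the sham arrays (1.62-fold lower), which 33 of 500 reached, and by -0.31 between the TAC arrays.

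Lack of overlap between pairs of arrays was common on the whole table and is not particular to these genes. Both STIM1KO arrays were above both WT arrays for 2 of the 8 probes, Trim54 and the bright Ttn probe, against 19.2% of all probes above the filter level, and below them for 0, against 21.5%. Both TAC arrays were above both sham arrays for 1 probe, Myom1, against 22.3%, and below them for 2, Mybpc3 and the middle Ttn probe, against 13.7%. These sets depended on the scaling. With median centring Mybph too had both STIM1KO arrays above both WT arrays, and with quantile normalization over the shared probes so did Mybph and Myom1. With the values as deposited Myom2 had both STIM1KO arrays below both WT arrays. The order for Myom1, both TAC arrays above both sham arrays, was lost with quantile normalization over the shared probes. The median difference of the 8 probes was 0.12 in the response of WT and 0.04 in that of STIM1KO. Between genotypes it was 0.07 for sham and 0.18 for TAC, and the difference of responses had 0.14. The medians of all probes were 0.02, 0.06, -0.02, 0.02 and 0.01 in the same order. Between the TAC arrays 4 of the 8 were above 0 and 4 below, beside 51.9% of all probes above 0. In the response of STIM1KO it was also 4 and 4, beside 55.4%. In the response of WT, between the sham arrays and in the difference of responses, 5 were above and 3 below. The shares of all probes above 0 were 52.4%, 46.8% and 51.5% in that order.

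**Figure D3:**
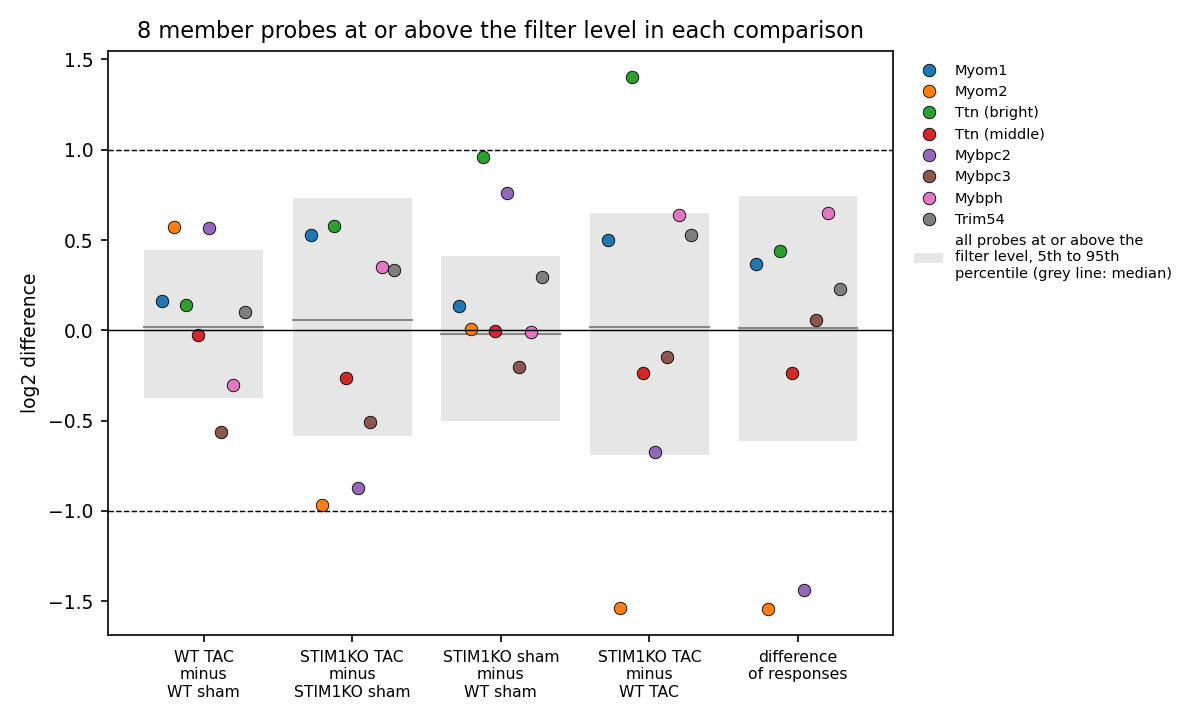
Log2 difference of the 8 member probes above the filter level in the 5 comparisons, with grey bars from the 5th to the 95th percentile of all 9804 such probes and dashed lines at 2-fold. Myom2 (-1.54) and the bright Ttn probe (1.40) lie past 2-fold between the TAC arrays, and Myom2 (-1.54) and Mybpc2 (-1.44) in the difference of responses.

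Genes that work with the members were taken from 5 fixed lists, with the brightest probe standing for a gene. Of 15 genes of the M-band and of titin's partners there, 13 were above the filter level, and 1 was 2-fold higher in the response of STIM1KO and 0 lower. It was Lrrc39, an M-band protein of striated muscle, at 317 in WT sham and 444 in WT TAC, against 359 in STIM1KO sham and 804 in STIM1KO TAC. Its log2 difference was 1.16 in the response of STIM1KO, 0.48 in that of WT and 0.86 between the TAC arrays, so Lrrc39 and Myom1 were highest where Myom2 was lowest. The median of the 13 genes was 0.02 in the response of STIM1KO and 0.10 between the TAC arrays. Ckm, the muscle creatine kinase that is bound in part at the M-band, was at 6410, 6710 and 6434 on the first 3 arrays and at 4763 in STIM1KO TAC, a difference of -0.49 from WT TAC. Unc45b, a chaperone of myosin, was at 955 in WT sham and 813 in WT TAC, against 768 in STIM1KO sham and 480 in STIM1KO TAC, a difference of -0.76 from WT TAC. The list did not fall as a whole: between the TAC arrays 8 of the 13 genes were above 0 and 5 below. Ckmt2 was at 16660, 13783 and 15570 on the first 3 arrays and at 18035 in STIM1KO TAC, a difference of 0.39 from WT TAC. Sqstm1 differed by 0.52 there.

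Of 7 regulators of titin splicing, 6 were above the filter level and 0 were at 2-fold in any of the 5 comparisons. Mbnl1, a splicing factor of muscle, was at 368 in WT sham and 307 in WT TAC, against 279 in STIM1KO sham and 199 in STIM1KO TAC, or -0.63 between the TAC arrays, and Rbfox1 differed by -0.47 between the sham arrays. Rbm20, the main repressor of titin exons in the heart, was at 109, 119, 127 and 160 on the same arrays, or 0.42 between the TAC arrays. The order of the arrays for Rbm20 was that of the bright Ttn probe, but it was not particular to Rbm20. Trim54, Trim55, Nbr1, Actn2, Fhl1 and Csrp3 had the same order, among others. That order requires both STIM1KO arrays above both WT arrays, which 19.2% of all probes above the filter level had. The share of all probes with the full order was not counted, and a link between Rbm20 and the Ttn values was not tested.

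Of 12 partners of the titin spring and the Z-disc, 8 were above the filter level, with a median of 0.46 in the response of STIM1KO and 0.42 between the TAC arrays. Of these 8, 1 was 2-fold higher in each response, in the difference of responses and between the TAC arrays, and 0 were 2-fold lower in any comparison. It was Myot, the Z-disc protein myotilin, at 43.5 in WT sham and 93.0 in WT TAC, against 54.2 in STIM1KO sham and 313 in STIM1KO TAC. For Myot the log2 difference was 1.09 in the response of WT and 2.53 in that of STIM1KO. Capn3, a protease bound to titin, was dim, at 4.73, 6.17 and 5.54 on the first 3 arrays and 12.4 in STIM1KO TAC. Of the 8 above the filter level, 2 were below 0 in the response of STIM1KO and 3 between the TAC arrays. Ankrd1, at 8235, 6449, 7395 and 4305, was at -0.78 in the response of STIM1KO, and Smpx at -0.355.

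Of 13 other muscle ubiquitin ligases and their regulators, 9 were above the filter level, 1 was 2-fold higher between the TAC arrays and 0 lower. It was Fbxo32 (atrogin-1), which with Trim63 is a standard marker of muscle atrophy, at 56.9 in WT sham and 42.2 in WT TAC, against 45.5 in STIM1KO sham and 88.7 in STIM1KO TAC. Fbxo32 was 1.07 higher in STIM1KO between the TAC arrays, where Trim63 was at -0.31. Trim55 (MuRF2), the third of the MuRF ligases, was at 157, 158, 174 and 205, or 0.38 between the TAC arrays, beside 0.53 for Trim54. Foxo3, a transcription factor that drives both Trim63 and Fbxo32, was too dim to follow, at 2.48 to 5.14.

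Of 11 thick filament genes, 7 were above the filter level, and 1 was at 2-fold, in the difference of responses. It was Myh7, the slow myosin heavy chain, at 50.3 in WT sham and 77.0 in WT TAC, against 68.1 in STIM1KO sham and 47.7 in STIM1KO TAC, with 0.62 in the response of WT, -0.52 in that of STIM1KO and -1.13 in the difference of responses. Like Mybpc2, it was high on WT TAC and STIM1KO sham and low on the others. Myh6, the main myosin heavy chain of the adult mouse heart, was at 15837, 14940, 16715 and 12358. The median of the 7 genes between the TAC arrays was -0.17.

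**Figure D4:**
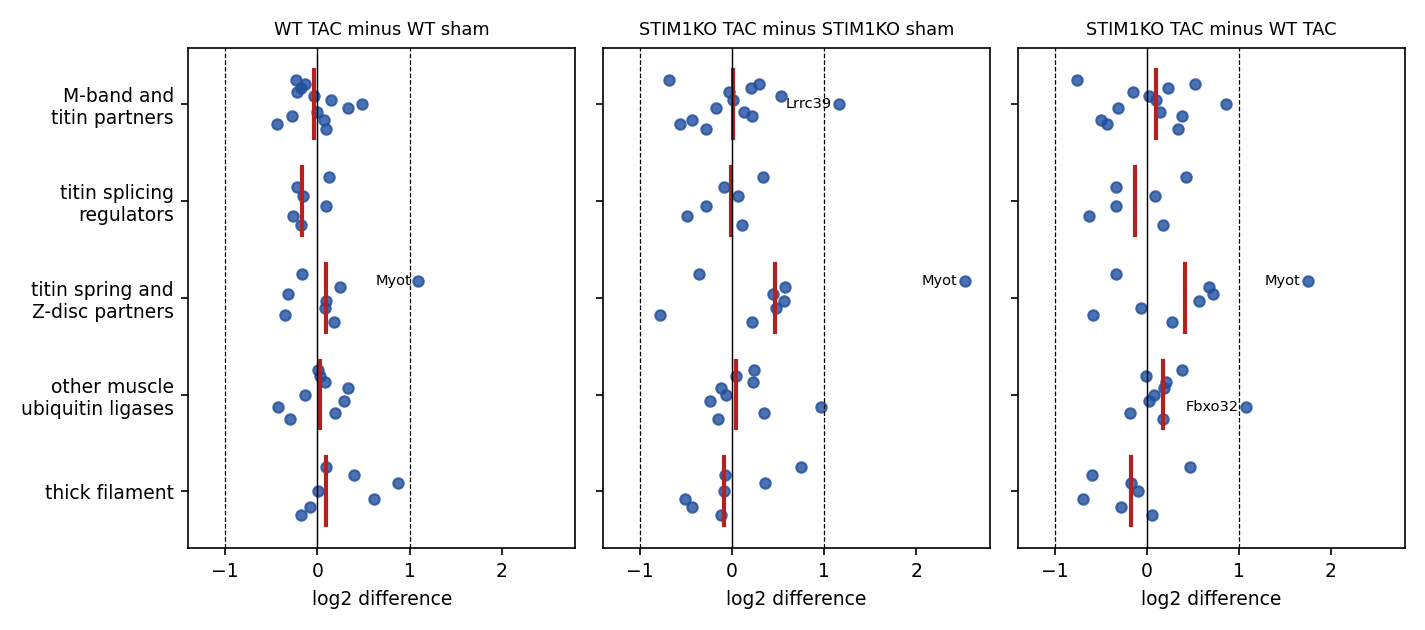
Log2 differences of the genes above the filter level in the 5 fixed lists, in 3 comparisons. Each point is a gene, the red bar is the median of the list, dashed lines mark 2-fold, and genes at or past 2-fold are named. Myot stands at 1.09, 2.53 and 1.75, Lrrc39 at 1.16 in the response of STIM1KO, and Fbxo32 at 1.07 between the TAC arrays.

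In whole ventricle, fewer cells of a type and less RNA per cell cannot be told apart. Markers of other cell types differed between the arrays. The summed intensity of 8 endothelial markers was 3556 in WT sham and 3286 in WT TAC, against 2477 in STIM1KO sham and 2222 in STIM1KO TAC, and all 6 of them above the filter level were lower in STIM1KO between the sham and between the TAC arrays. The sum of 8 fibroblast markers was 12999, 10369, 10022 and 7439, most of it from Gsn, at 8109, 5957, 6228 and 4421, and Dcn, at 3267, 2908, 2346 and 1458. The other markers did not all follow that sum: the median of the 8 in the response of STIM1KO was 0.01, and 5 had a value over 0. The sum of 8 macrophage markers was 1961, 2022, 1665 and 2166, most of it from C1qa and C1qb. C1qa was at 737, 779, 647 and 819, and C1qb at 878, 916, 735 and 960. Of the 6 above the filter level, 4 were higher in the response of STIM1KO and 2, Cd68 and Mrc1, were lower. Csf1r, below the filter level, was at 7.85, 26.6, 11.1 and 75.5. The 9 measured cardiomyocyte markers summed to 148694, 160921, 162129 and 185878, the same order of arrays from low to high as the bright Ttn probe and Trim54. Much of the span came from Tnnt2, at 34139, 38505, 37847 and 58429, and single markers differed: between the TAC arrays 4 of the 8 above the filter level were higher in STIM1KO and 4, Myh6, Myl2, Myl3 and Myh7, were lower, with a median of 0.08. The part of cell composition in the member values was not tested. No marker was at 0, since the table holds no value of 0.

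Because Mybpc2 and Mybph are mainly skeletal muscle genes, skeletal markers were set beside them. Of 10, 7 were measured on all arrays and 2 passed the filter. The sum of the 7 was 135 in WT sham and 134 in WT TAC, against 138 in STIM1KO sham and 162 in STIM1KO TAC. Most of it came from the 2 that passed, Tnni2, at 47.3, 39.1, 39.7 and 52.5, and Pvalb, at 56.8, 54.8, 64.1 and 57.7. Myh4, the defining fast myosin among them, was dim and below the filter level, at 2.82, 2.91, 3.29 and 6.53 on these arrays. Tnnt3, Actn3 and Tnnc2, also below the filter level, were highest in STIM1KO TAC like Myh4 and Tnni2. Pvalb was highest in STIM1KO sham, and Mylpf, below the filter level, in WT TAC. The STIM1KO TAC array was thus the highest for the skeletal sum and for Mybph and the lowest for Mybpc2. The sum of 8 atrial markers was 1745, 2020, 1563 and 1535, most of it from Nppa, at 1417, 1693, 1217 and 1156. Of the 5 above the filter level, 4 were lower in the response of STIM1KO and 1 was higher. The latter was Bmp10, at 85, 96.3, 109 and 181.

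For the members at 2-fold in any comparison, the probes with the most alike profile were sought among 7538 named probes above the filter level. Likeness was the root mean square distance over the 4 arrays between log2 profiles centred on their means. Nearest to Myom2 were Ric3 (0.10), Kcne1 (0.13), a subunit of cardiac potassium channels, and Trmt2a (0.14). Ric3 was at 52.5 in WT sham and 69.6 in WT TAC, against 54.5 in STIM1KO sham and 23.7 in STIM1KO TAC. Nearest to the bright Ttn probe were Parl (0.13), a protease of the mitochondrial inner membrane, Ccl8 (0.17), a chemokine, and Gpn2 (0.20). Nearest to Mybpc2 were Grwd1 (0.11), Mpc1 (0.13), a subunit of the mitochondrial pyruvate carrier, and Tmx3 (0.13). With 4 arrays, profiles this close say only that the values run alike on these arrays.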

How the data were processed

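RNA of left ventricles was amplified as amino allyl RNA and coupled to Cy5, per the labels' protocols. Each probe has a linear intensity on each array in the table the authors deposited, scaled so that the median of each array was near 20, as the values show; the sources used here do not give the background correction, the rule for empty cells or the genome build. A symbol was paired with 16631 of 23473 probes, none with several, and 6842 had none; symbols were updated through a mouse gene table of GRCm38.p6. Intensities were taken to log2 and quantile-normalized with limma 3.58.1 in R 4.3.3, since array medians over shared probes spread over 0.101. Differences were taken probe by probe, and 2-fold was the threshold.

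The members and lists were chosen with earlier results of these data known. Named genes were every member, Stim1, list genes at 2-fold in any comparison or otherwise the 2 with the largest difference, and the 3 nearest profiles of members at 2-fold. Ckm, Unc45b, Ckmt2, Sqstm1, Rbm20, Trim55, Myh6, Rps6ka1, Nbr1, Actn2, Fhl1, Csrp3, Ankrd1 and Smpx were added outside that rule, with their values already seen. So were the markers Myl2, Myl3, Ryr2, Tnnt2, Gsn, Dcn, C1qa, C1qb, Csf1r, Cd68, Mrc1, Nppa, Bmp10, Myh4, Tnni2, Pvalb, Tnnt3, Actn3, Tnnc2 and Mylpf. Alternatives were other scalings, an offset of 5.49 before log2, other filters and thresholds, and the mean over probes.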

Additional observations from a re-analysis of the deposited data

Results flagged for a closer look

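With 1 array a group, a difference between the genotypes in the response to TAC could not be tested. For 2 member probes the responses ran in opposite directions and differed by at least 2-fold. Myom2 was higher on the TAC array in WT (0.57) and lower in STIM1KO (-0.97), a log2 difference of responses of -1.54. Mybpc2 was likewise at 0.57 in WT and -0.87 in STIM1KO, a difference of responses of -1.44. In each case the difference was not tested. In the same comparison 1.85% of all probes above the filter level were 2-fold above 0 and 0.643% 2-fold below. With median centring 113 of all probes were above and 128 below. The share of all probes whose responses ran in opposite directions was not counted.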

How the results depend on the processing

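The count of member probes at 2-fold was 0 in the response of WT, in that of STIM1KO and between the sham arrays, and 2 each for the TAC arrays and the difference of responses. In the response of STIM1KO it became 2 with median centring, 1 with the values as deposited, 1 with quantile normalization over shared probes and 2 at a threshold of 1.5-fold. Between the sham arrays it became 1 with median centring and 2 at 1.5-fold. Between the TAC arrays it became 4 at 1.5-fold, 0 at 3-fold and 1 with the mean over the probes of a gene, where Ttn was below 2-fold since its probes are averaged. In the difference of responses it became 3 at 1.5-fold, with Mybph added, 0 at 3-fold and 1 with a filter at the 75th percentile, which left Mybpc2 out. The counts over all probes moved too. In the response of STIM1KO 104 were higher and 84 lower with median centring, and 140 and 46 as deposited. Quantile normalization over shared probes gave 125 and 60 there. Between the sham arrays median centring gave 13 and 42. At 3-fold, 8 and 3 were left between the TAC arrays and 31 and 6 in the difference of responses. For the latter, the filter at the 75th percentile left 82 and 23. At 1.5-fold the counts over all 9804 probes also grew, to 929 higher and 486 lower in the response of STIM1KO, 138 and 312 between the sham arrays, 659 and 767 between the TAC arrays and 933 and 552 in the difference of responses. The member count in the response of WT stayed at 0 under each alternative run. Median centring moved the median of all probes from 0.06 to -0.08 in the response of STIM1KO and from 0.01 to -0.12 in the difference of responses. Of 200 single member values under the other scalings and the offset, 195 kept their side of 2-fold, 5 passed it and 0 that had been past it reversed. Of the 50 member differences, 4 turned sign under some scaling, none of them larger than 0.06 in size. No paired analysis was possible because each group has 1 array, and no array could be left out of a group for the same reason. The probe of Trim63 and the dimmest Ttn probe are limited by low signal.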
